A study of Mus musculus with 9 samples.

Results

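The LIM-only genes Lmo1, Lmo2, Lmo3 and Lmo4 and the LIM domain-binding cofactor genes Ldb1 and Ldb2 were followed in the striatum of mouse embryos lacking the transcription factor Ebf1 in defined neurons. These 6 genes were listed by name among the 44886 gene identifiers of the count files, of which 16368 were tested. All 6 passed the filter on low counts. Lmo2 was selected on these same data because it was lower in both mutants, so its difference from control is described here without a test, and the other 5 genes were tested.

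Dorsal striatum is built mostly of spiny projection neurons (SPN) of the direct (dSPN) and indirect (iSPN) pathways, and Ebf1 is a transcription factor of embryonic dSPN. Striatal RNA was sequenced at E17.5 in 3 embryos labelled Control, 3 labelled Islet1Cre;Ebf1fl/- (Islet1Cre mutants) and 3 labelled Dlx5/6::Cre;Ebf1fl/- (Dlx5/6::Cre mutants), all given as C57BL/6 by the labels, whereas the methods place the Islet1Cre line on B6D2F1/J. Both mutants carry 1 floxed and 1 null allele of Ebf1. The Islet1Cre driver acts in dSPN and in cholinergic interneurons, the Dlx5/6::Cre driver in both SPN types and in interneurons at large, and cells outside these lineages keep the floxed allele but still carry the null one. The study used heterozygous embryos as controls, and the alleles of each control embryo are not given in the sources used here. The tissue is bulk striatum, so fewer cells of a type and less RNA per cell cannot be told apart in any value below.

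LIM-only proteins consist of a pair of LIM domains with no DNA-binding part of their own. They bind Ldb1 or Ldb2, scaffold proteins that join LIM proteins to each other and bring them to DNA together with partners such as LIM-homeodomain, bHLH and GATA factors. LIM-only and LIM-homeodomain proteins bind the same region of Ldb, so they can compete for it. Lmo2 is best known from blood and vessel formation, and Lmo4 from cortical and striatal neurons.

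Counts on genes totalled 16.5 to 41.5 M per embryo. Some libraries stood apart. Dlx5/6::Cre replicate 1 had 16981 normalised counts summed over 6 genes of dividing progenitors, against at most 4583 in the other Dlx5/6::Cre libraries and 4343 to 5799 in the Control and Islet1Cre libraries, and 6362 over 8 genes of cortical excitatory neurons, against 1019 to 3137 in the other 8. Control replicate 3 and Islet1Cre replicate 3 each held over 100 normalised counts both of Xist and of 4 Y-linked genes together, although each is labelled as 1 sample. Control replicate 2 held 3.27 normalised counts of Xist and 3800 of the Y-linked genes. Control replicate 1, Islet1Cre replicates 1 and 2 and all Dlx5/6::Cre libraries held at least 10719 of Xist and at most 3.62 of the Y-linked genes. Sex-linked counts were thus unbalanced between genotypes, and their part in the results below was not tested. Normalised counts of Ebf1, counted over the whole gene, were 7945 to 14208 in controls and 11774 to 15343 in the 6 mutants, so they do not check the genotype. By immunostaining, the study reported Ebf1 protein to be absent from the striatum of both mutants at E17.5. The 7 markers of striatal projection neurons were present in every group, with sums of 90726 to 111807 normalised counts that overlapped between groups. In Islet1Cre mutants 0 of them passed by edgeR, 4 at an unadjusted p below 0.05 and 1 by DESeq2, and in Dlx5/6::Cre mutants 1 passed as lower by edgeR (Foxp1, adjusted p = 0.0305), 3 at an unadjusted p below 0.05 and 2 by DESeq2. In Dlx5/6::Cre mutants the sums of 8 microglia markers lay above controls (2966 to 3313 against 2568 to 2800) and those of 6 interneuron markers below (6599 to 10408 against 10535 to 11539). By edgeR 0 of each passed, with 3 and 4 at an unadjusted p below 0.05 and 3 and 2 by DESeq2, and their part in the results below was not tested. Over all 16368 genes tested, edgeR called 159 in Islet1Cre mutants and 392 in Dlx5/6::Cre mutants. At an unadjusted p below 0.05 there were 1298 and 2543, and DESeq2 called 395 and 860 genes. These totals are the background for the counts of lists and neighbours here and below. Embryo codes began with IE in all Islet1Cre mutants and 2 controls and with D in all Dlx5/6::Cre mutants and 1 control, so code and genotype overlap in part, and what the code stands for is not given in the sources used here.

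Lmo4 was the most abundant LIM-only transcript, Lmo2 the one that differed most from control and Lmo1 the lowest in controls. On a scale of counts per kilobase of merged exons per M counts (M, 1000000), which allows levels of different genes to be compared, Lmo4 reached 110 ± 8.88 (SD, n = 3) in controls. Ldb1 followed with 72.2 ± 4.03 and Ldb2 with 43.2 ± 1.65. Lmo3 stood at 28.3 ± 6.57, Lmo2 at 24.2 ± 4.44 and Lmo1 at 3.76 ± 0.939. The control ranges of Lmo3 (20.8 to 33.1) and Lmo2 (21.3 to 29.3) overlapped, and no other neighbours in this order did. The level of Lmo4 depends on the transcript model more than the others, since its merged exons span 3530 bases and its longest annotated transcript 1669.

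Lmo2 (ENSMUSG00000032698, GRCm38 chr2:103957986-103981878, plus strand) encodes a bridging subunit of bHLH and GATA complexes. Its normalised counts were 1909, 1436 and 1394 in controls, 428, 450.5 and 630.0 in Islet1Cre mutants, and 390, 338 and 353 in Dlx5/6::Cre mutants. Every mutant embryo lay below every control, which is how the gene was chosen. The mean was 31.8% of control in Islet1Cre mutants and 22.8% in Dlx5/6::Cre mutants, that is a log2 fold change of -1.66 (95% interval -2.03 to -1.29) and -2.13 (95% interval -2.51 to -1.76). These values moved between -1.85 and -1.50 and between -2.22 and -1.97 when each embryo was left out in turn. With the embryo code as a covariate they were -1.74 and -1.95. The intervals and refits use the values on which Lmo2 was chosen, are not corrected for that choice and are descriptions only.

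The Lmo2 level of Dlx5/6::Cre mutants was lower than that of Islet1Cre mutants (log2 fold change -0.47, SE 0.17, 95% interval -0.85 to -0.10). This difference between mutants did not pass (edgeR adjusted p = 0.868). Without Islet1Cre replicate 3, which holds both Xist and Y-linked counts, it was -0.28. In that comparison 0% of all genes passed (0 of 16368 by edgeR, with 844 at an unadjusted p below 0.05 and 18 by DESeq2).

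Lmo2 is also a gene of endothelial and blood cells. The 10 endothelial markers summed to 4738 to 6247 normalised counts in controls, 4916 to 5382 in Islet1Cre mutants and 4559 to 5528 in Dlx5/6::Cre mutants. None of the 10 passed the test in either comparison by edgeR, at an unadjusted p below 0.05 or by DESeq2, and their median log2 fold changes were -0.07 and -0.06. The 6 erythroid markers summed to 9115 to 17079 normalised counts in controls, 8082 to 12078 and 9036 to 11041 in the mutants, with none passing by any of the 3 criteria. Their median log2 fold changes were -0.27 in Islet1Cre mutants (range -0.51 to 0.87) and -0.19 in Dlx5/6::Cre mutants (range -0.61 to 0.89). The summed levels of both lists overlapped between all 3 groups. The part of endothelial and blood cells in the Lmo2 values was not tested.

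**Figure D1:**
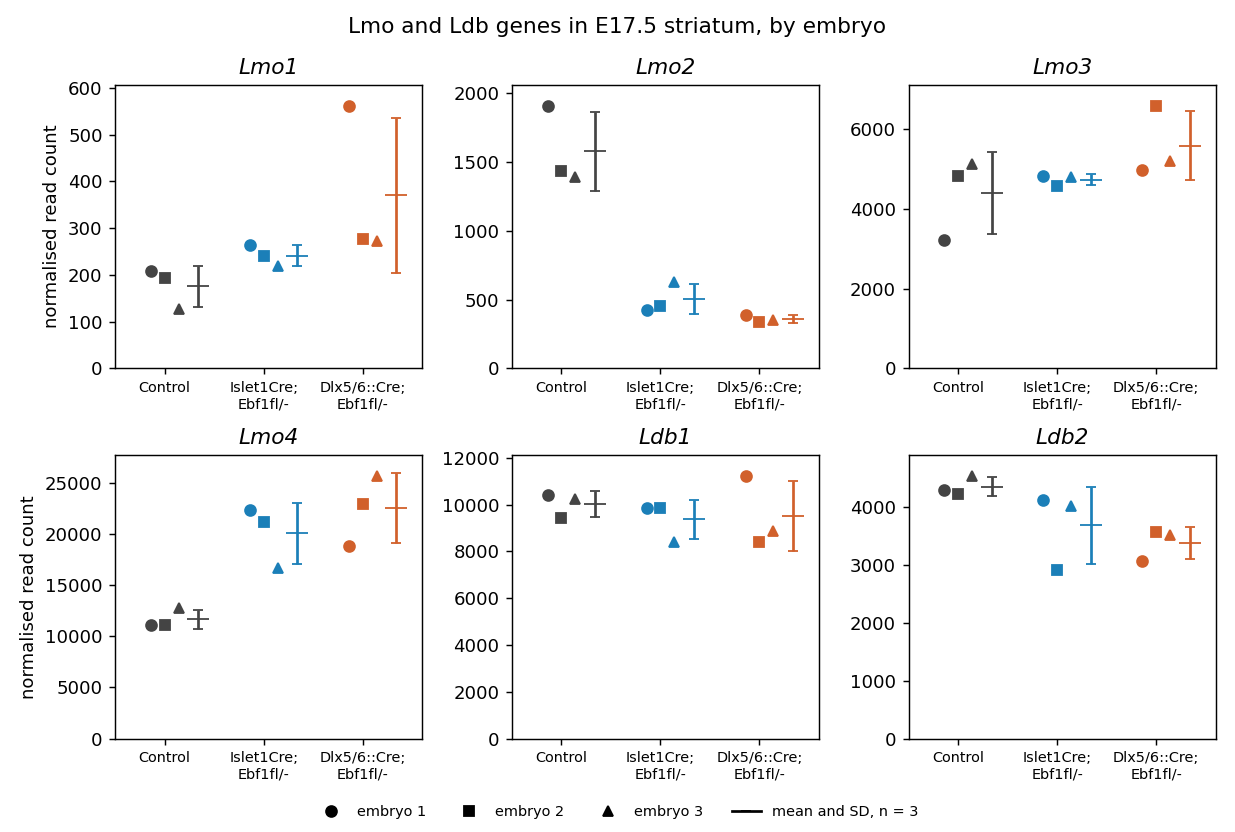
Normalised read counts (counts divided by DESeq2 size factors, linear axes from 0) of the 6 genes in each embryo, with symbols for embryos 1 to 3 of each genotype and bars for the mean and SD of 3 embryos. Lmo2 sits at 1394 to 1909 in controls and at most at 630.0 in mutants, whereas Lmo4 sits at 11094 to 12754 in controls and at least at 16677 in mutants.

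Lmo4 (ENSMUSG00000028266, GRCm38 chr3:144188530-144205220, minus strand) encodes an adaptor of neuronal transcription complexes, which acts in cortical and striatal neurons. It rose in both mutants. Normalised counts were 11122, 11094 and 12754 in controls, 22344, 21132 and 16677 in Islet1Cre mutants, and 18867, 22943 and 25661 in Dlx5/6::Cre mutants. All 6 mutant embryos exceeded all 3 controls, and the ranges of both mutants overlapped each other. In Islet1Cre mutants the level was 1.72-fold that of controls (log2 fold change 0.78, SE 0.13, 95% interval 0.49 to 1.07, edgeR adjusted p = 0.0250). In Dlx5/6::Cre mutants it was 1.93-fold (log2 fold change 0.95, SE 0.13, 95% interval 0.65 to 1.24, adjusted p = 0.00524). The difference between mutants was 0.17 on the log2 scale (95% interval -0.13 to 0.46, adjusted p = 0.873).

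Lmo4 was the 1 of the 5 tested members to pass in each comparison with control. Over all genes tested, 0.971% passed for Islet1Cre mutants and 2.39% for Dlx5/6::Cre mutants. The call in Dlx5/6::Cre mutants held in all 9 fits with a single embryo removed. The call in Islet1Cre mutants held in 4 of 9 and was lost without Control replicate 1 (adjusted p = 0.120), Control replicate 2 (0.101), Control replicate 3 (0.0612), Islet1Cre replicate 1 (0.130) and Islet1Cre replicate 2 (0.144), with log2 fold changes of 0.70 to 0.89 over all 9. With the embryo code as a covariate the log2 fold changes were 0.85 (adjusted p = 0.0558) and 0.82 (adjusted p = 0.196), so both calls were lost. Against the 2 controls of the same code the Islet1Cre value was 0.85 (adjusted p = 0.0539), and against the 1 control of the same code, Control replicate 3, the Dlx5/6::Cre value was 0.82. The latter takes the spread of that lone control from the other groups and is given as a value only. Without Islet1Cre replicate 3, the other library that holds both Xist and Y-linked counts, the value in Islet1Cre mutants was 0.89 (adjusted p = 0.0196). Lmo4 is high in cortical neurons, and cortical excitatory markers summed to 1081 to 2565 normalised counts in controls, 1019 to 1954 in Islet1Cre mutants and 2690 to 6362 in Dlx5/6::Cre mutants, with 0 of 8 passing in either comparison by edgeR, 0 and 5 at an unadjusted p below 0.05, and 0 and 0 by DESeq2. Their part in the Lmo4 result of Dlx5/6::Cre mutants was not tested. Without Dlx5/6::Cre replicate 1, the library with 6362, the log2 fold change of Lmo4 was 1.06 (adjusted p = 0.000967), and the cortical sums of the other Dlx5/6::Cre libraries were also above those of controls, at 2690 and 3137.

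Because Lmo4 passed the test in both mutants, its promoter sequences are shown. RefSeq (GRCm38.p6) gives 3 starts for Lmo4, of which the upstream start and 1 of 2 downstream starts with overlapping windows are printed as the 250 bases before the start, 5′ to 3′ on the minus strand. The first window, chr3:144205256-144205505, lies outside the annotated gene, and the second, chr3:144202397-144202646, lies between exons of the longer Lmo4 transcripts.
Lmo4 upstream start: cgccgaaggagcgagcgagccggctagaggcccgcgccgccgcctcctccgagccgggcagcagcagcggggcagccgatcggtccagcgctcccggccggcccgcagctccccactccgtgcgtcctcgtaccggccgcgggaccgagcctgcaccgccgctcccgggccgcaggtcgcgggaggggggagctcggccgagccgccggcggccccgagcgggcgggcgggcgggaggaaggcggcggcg
Lmo4 downstream start: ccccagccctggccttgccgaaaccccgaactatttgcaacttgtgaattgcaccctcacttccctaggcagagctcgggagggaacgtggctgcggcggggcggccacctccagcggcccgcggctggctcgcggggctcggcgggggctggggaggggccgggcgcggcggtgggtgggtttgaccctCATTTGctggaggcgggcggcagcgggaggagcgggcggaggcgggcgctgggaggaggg
Capitals mark an E-box (CANNTG on either strand), the motif of bHLH factors, which starts 60 bases before the downstream start. The window of the upstream start holds none, and neither window holds the core of the Ebf motif (CCCNNGGG, which reads the same on both strands in this form). GC content was 82.4% and 73.6%. Among 32851 promoter windows of 250 bases, 66.2% hold an E-box and 11.8% the Ebf core. RefSeq windows were matched for 4 members, Lmo1, Lmo3, Lmo4 and Ldb1, with 9 windows in all, of which 6 hold an E-box. One window of Ldb1 holds the Ebf core, 47 bases before the start. These matches describe letters only.

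A transcript inside Lmo4 was also counted. Gm43445 is annotated on the same strand within an intron of Lmo4, at chr3:144197172-144199262. It had 47.9, 37.6 and 50.02 normalised counts in controls, 85.6, 173 and 102 in Islet1Cre mutants, and 141, 137 and 97.0 in Dlx5/6::Cre mutants. All mutants exceeded all controls. The log2 fold change was 1.47 in Dlx5/6::Cre mutants (SE 0.29, adjusted p = 0.0281 by edgeR) and 1.43 in Islet1Cre mutants (SE 0.29, adjusted p = 0.0547). The call in Dlx5/6::Cre mutants was lost without any 1 of the 3 controls and without Dlx5/6::Cre replicate 2, and with the embryo code as a covariate. Reads of unspliced Lmo4 RNA and of a separate Gm43445 transcript cannot be told apart in these counts. The other tested neighbours of Lmo4 within 250 kb, Hs2st1 and Gm5857, did not pass in either comparison.

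Around Lmo2, 7 further genes were tested within 250 kb. Their log2 fold changes ran from -0.18 to 1.67 in Islet1Cre mutants and from -0.10 to 1.20 in Dlx5/6::Cre mutants. By edgeR 0 of the 7 passed in either comparison, with 1 and 2 at an unadjusted p below 0.05, and by DESeq2 1 and 0. The gene called by DESeq2, Cd59a, named after its values were seen, had mean normalised counts of 10.3 in controls and 33.0 in Islet1Cre mutants. No neighbour of Lmo2 passed the test as lower.

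Lmo1 (ENSMUSG00000036111, GRCm38 chr7:109138572-109175207, minus strand), a paralogue of Lmo3 expressed in the nervous system, was the LIM-only gene with the lowest control level. Normalised counts were 208, 194 and 126 in controls, 264, 241 and 218 in Islet1Cre mutants, and 561, 277 and 272 in Dlx5/6::Cre mutants. All mutant embryos exceeded all controls, and a single Dlx5/6::Cre embryo stood well above the other mutants. The log2 fold change was 1.07 in Dlx5/6::Cre mutants (SE 0.29, 95% interval 0.43 to 1.71, adjusted p = 0.0957 by edgeR), which did not pass, whereas DESeq2 gave an adjusted p of 0.00517. The highest embryo, replicate 1, is the library with 16981 normalised counts of progenitor markers, whose part in the Lmo1 value was not tested. Without it the log2 fold change was 0.64 (adjusted p = 0.115). The Dlx5/6::Cre value was 0.87 without Control replicate 3 and 1.55 with the embryo code as a covariate, neither passing. In Islet1Cre mutants the log2 fold change was 0.45 (SE 0.29, 95% interval -0.19 to 1.096, adjusted p = 0.881), and 0.27 without Control replicate 3 or 0.26 with the embryo code as a covariate.

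Lmo3 (ENSMUSG00000030226, GRCm38 chr6:138362918-138581968, minus strand), a LIM-only gene of forebrain neurons, overlapped between controls and each mutant. Its normalised counts were 3218, 4822 and 5124 in controls, 4821, 4565 and 4786 in Islet1Cre mutants, and 4969, 6571 and 5199 in Dlx5/6::Cre mutants. Control replicate 1 was the lowest of the 9 embryos. The log2 fold change was 0.10 in Islet1Cre mutants (95% interval -0.25 to 0.45, adjusted p = 0.999 by edgeR). In Dlx5/6::Cre mutants it was 0.35, with a 95% interval of -0.0036 to 0.70 and an adjusted p of 0.325. Neither passed. Without Control replicate 1 the values were -0.076 and 0.17, without Dlx5/6::Cre replicate 2 the Dlx5/6::Cre value was 0.21, and with the embryo code as a covariate the values were 0.23 and 0.12. An annotated antisense gene, A830011K09Rik, had at most 3.09% of the Lmo3 count in any embryo.

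Neither cofactor gene passed the test in either mutant. Ldb1 (ENSMUSG00000025223, GRCm38 chr19:46031570-46045214, minus strand), the widely expressed scaffold, had normalised counts of 10421, 9409 and 10244 in controls, 9858, 9841 and 8381 in Islet1Cre mutants, and 11217, 8411 and 8884 in Dlx5/6::Cre mutants. The 3 groups overlapped. Its log2 fold change was -0.10 in Islet1Cre mutants (95% interval -0.35 to 0.15, adjusted p = 0.999). In Dlx5/6::Cre mutants it was -0.08, with a 95% interval of -0.33 to 0.17 and an adjusted p of 0.790 by edgeR. Pprc1 lies on the opposite strand across part of Ldb1 and reached 22.5% of the Ldb1 count. Whether the counting used strand is not given in the sources used here, so reads of the overlap are uncertain.

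Ldb2 (ENSMUSG00000039706, GRCm38 chr5:44472132-44799680, minus strand), the second scaffold gene, had normalised counts of 4291, 4219 and 4536 in controls, 4118, 2919 and 4023 in Islet1Cre mutants, and 3059, 3565 and 3511 in Dlx5/6::Cre mutants. Every mutant embryo lay below every control, yet neither difference passed. The log2 fold change was -0.24 in Islet1Cre mutants (SE 0.12, 95% interval -0.51 to 0.03, adjusted p = 0.715) and -0.36 in Dlx5/6::Cre mutants (SE 0.12, 95% interval -0.63 to -0.10, adjusted p = 0.175 by edgeR). Neither interval extends below -0.63 on the log2 scale. Without Islet1Cre replicate 2, which has the lowest count, the Islet1Cre value was -0.097. The call for Dlx5/6::Cre mutants appeared in 1 of 9 fits, without Islet1Cre replicate 2 (adjusted p = 0.0490).

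Among the 5 members tested, Lmo1, Lmo4 and Ldb2 did not overlap between controls and Islet1Cre mutants, and the same 3 did not overlap for Dlx5/6::Cre mutants. Groups did not overlap for 15.1% and 20.9% of all genes tested in these comparisons. The comparisons share their controls, so a shared direction of the members in both mutants is not a repeat. Between the mutants 0 of 6 members passed by edgeR, 1 at an unadjusted p below 0.05 (Lmo2) and 0 by DESeq2.

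**Figure D2:**
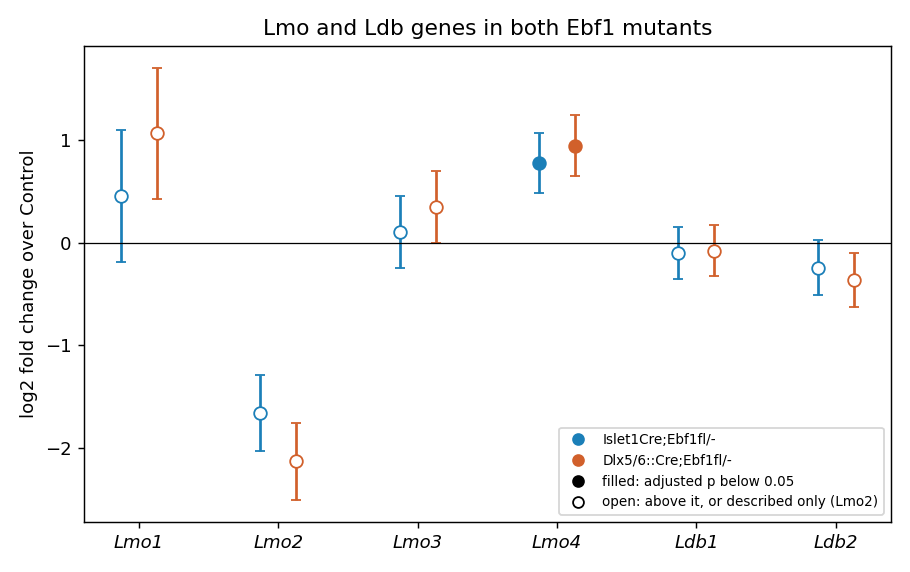
Log2 fold change over control of the 6 genes in Islet1Cre mutants (blue) and Dlx5/6::Cre mutants (orange), each a point with its 95% interval from edgeR. Filled points, for Lmo4 at 0.78 and 0.95, have an adjusted p below 0.05. Lmo2, at -1.66 and -2.13, was chosen on these data and is shown as a description, with intervals not corrected for that choice.

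The make-up of the LIM-only transcripts differed accordingly. Per exon length, Lmo2 made up 14.7% ± 3.30 (SD, n = 3) of the summed Lmo level in controls, 3.41% ± 1.19 in Islet1Cre mutants and 2.15% ± 0.415 in Dlx5/6::Cre mutants. Lmo4 made up 66.0% ± 1.60, 81.1% ± 3.00 and 80.8% ± 3.23. The shares of Lmo4 ran from 64.5% to 67.7% in controls and from 77.6% to 84.3% in mutants, without overlap. Lmo3 held 17.0%, 13.3% and 13.9%, and Lmo1 2.29%, 2.23% and 3.17%. Since Lmo2 was chosen for its decrease, these shares are descriptions.

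The summed LIM-only level was higher relative to the cofactors in mutants. Lmo4 made up 66.0% of that sum in controls and 81.1% and 80.8% in the mutants, so the ratio is not separate from the Lmo4 values above. The ratio of summed Lmo to summed Ldb level was 1.35, 1.47 and 1.49 in controls, 2.26, 2.404 and 2.01 in Islet1Cre mutants, and 2.04, 2.80 and 2.89 in Dlx5/6::Cre mutants. Each mutant embryo lay above each control, with means of 1.44 ± 0.0755, 2.23 ± 0.198 and 2.58 ± 0.466 (SD, n = 3). The ratio of Lmo4 to Lmo2 per length was 4.64 ± 1.02 in controls, 25.7 ± 8.33 in Islet1Cre mutants and 38.7 ± 7.89 in Dlx5/6::Cre mutants. Ldb1 made up 62.5% ± 1.07 of the summed Ldb level in controls, 64.8% ± 5.54 and 66.8% ± 5.12 in the mutants, and these ranges overlapped. No test was run on these ratios, which use merged exons and would take other values with another transcript model.

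**Figure D3:**
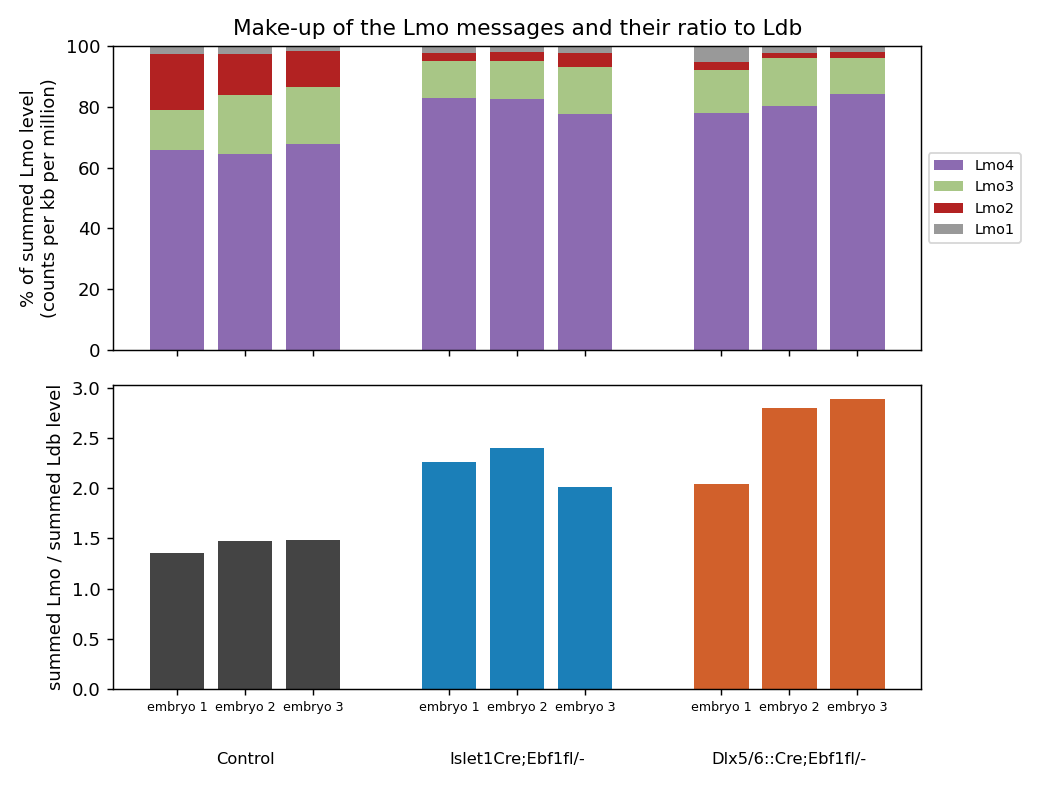
Upper panel, share of each gene in the summed level of Lmo1 to Lmo4 per embryo (percent, counts per kilobase per M). Lower panel, ratio of the summed Lmo to the summed Ldb level per embryo. Lmo2 takes 14.7% on average in controls and 3.41% and 2.15% in the mutants, and the ratio lies at 1.35 to 1.49 in controls and at 2.01 to 2.89 in mutants.

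Lmo2 and Lmo4 also varied in opposite directions within genotypes. Across the deviations of the 9 embryos from their genotype means, the correlation of log2 levels was -0.74 (Pearson's r). In Islet1Cre mutants, replicate 3 had the highest Lmo2 and the lowest Lmo4, and in Dlx5/6::Cre mutants replicate 1 did. Both are libraries that stood apart, and all points share library scaling and their genotype means, so the value is a description.

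**Figure D4:**
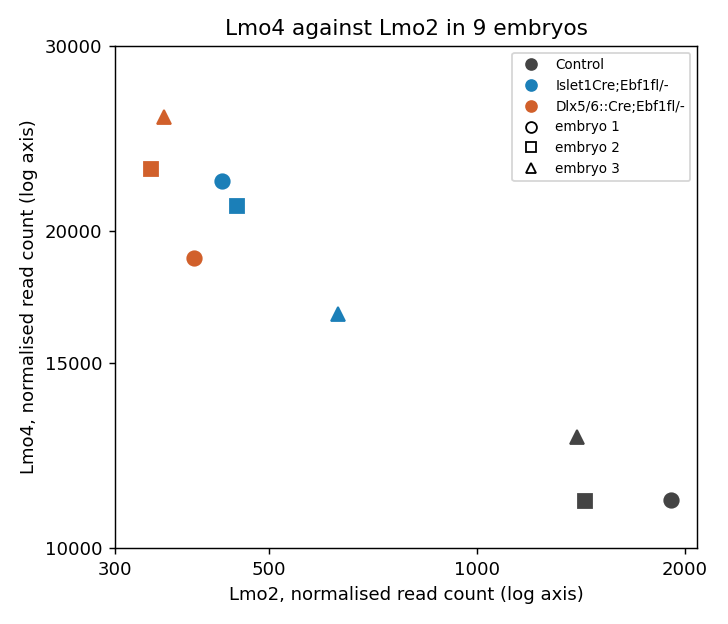
Lmo4 against Lmo2 normalised read count in the 9 embryos, both on log axes, coloured by genotype with symbols for embryos 1 to 3. The controls lie at the lower right, with Lmo2 at 1394 to 1909 and Lmo4 at 11094 to 12754, and within both mutants the embryo with the most Lmo2 has the least Lmo4.

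The genes most like Lmo2 across the 9 embryos were Sox8 (r = 0.990), Vrk1 (0.990), Prkcd (0.990), Plxnd1 (0.983) and Mboat2 (0.981), out of 12050 genes with a mean normalised count of at least 100. Sox8 is a transcription factor of the SoxE group, Vrk1 and Prkcd are kinases, Plxnd1 is a semaphorin receptor and Mboat2 an acyltransferase. Within genotypes the correlations were 0.83, 0.92, 0.76, 0.71 and 0.85. Those most like Lmo4 were Efnb3 (0.978), an ephrin, March1 (0.973), a ubiquitin ligase, Gfra1 (0.973), a receptor of the neurotrophic factor GDNF, Adcy8 (0.971), an adenylyl cyclase, and Dcaf11 (0.971), with within-genotype values of 0.92, 0.83, 0.81, 0.77 and 0.77. Any gene that differs between controls and mutants in the same direction scores high on this measure, and the embryos share libraries, depth and controls.

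No listed partner of the Lmo and Ldb proteins, and none of 11 other LIM genes listed with them, passed the test. Of 41 listed genes 29 were tested, and 0 passed in either comparison by edgeR, with 3 and 7 at an unadjusted p below 0.05 and 1 and 2 by DESeq2. Of all 16368 genes tested, 1298 and 2543 had an unadjusted p below 0.05, and DESeq2 called 395 and 860 genes. The median log2 fold change of the 29 was 0.02 in Islet1Cre mutants and 0.15 in Dlx5/6::Cre mutants, beside -0.0016 and 0.01 over all genes tested. Of the 12 LIM-homeodomain genes, which compete with LIM-only proteins for Ldb, 8 were too low to test, and the other 4, Isl1, Lhx2, Lhx6 and Lhx8, had log2 fold changes of -0.01 to 0.18 and -0.43 to 1.21. All 4 genes of the group that binds or regulates Ldb, the single-stranded DNA-binding partners Ssbp2, Ssbp3 and Ssbp4 and the ubiquitin ligase Rlim, were tested, with log2 fold changes of -0.06 to 0.20 and -0.02 to 0.22. Of the 11 bHLH and GATA genes 9 were tested, with -1.38 to 0.23 and -0.28 to 0.70. The 11 summed to 15356 normalised counts in Dlx5/6::Cre replicate 1 and to at most 8510 in the other Dlx5/6::Cre libraries. Controls had 7186 to 8323 and Islet1Cre mutants 8235 to 9657. The part of replicate 1 in the Dlx5/6::Cre values was not tested. The 3 Lmo4-binding genes, Deaf1, Rbbp8 and Brca1, ran from -0.06 to 0.19 and from -0.07 to 0.79, and 9 of 11 other LIM genes from -0.58 to 0.27 and from -0.56 to 0.46.

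Isl1, a LIM-homeodomain factor of dSPN and cholinergic neurons, had normalised counts of 5065, 6247 and 4713 in controls, 5415, 5668 and 4927 in Islet1Cre mutants, and 3979, 3908 and 4262 in Dlx5/6::Cre mutants. Each Dlx5/6::Cre embryo lay below each control. The log2 fold change was -0.40 there (SE 0.10, 95% interval -0.63 to -0.17), with an adjusted p of 0.0817 by edgeR and 0.0186 by DESeq2, and with the embryo code as a covariate it was -0.22 (adjusted p = 0.828). It was -0.0036 in Islet1Cre mutants (95% interval -0.23 to 0.23, adjusted p = 0.999 by edgeR). The methods write this driver as Islet1Cre/+, a notation for an allele of Isl1 itself, and which controls carry it is not given. The driver and the loss of Ebf1 cannot be told apart in this Isl1 value. Lhx8, a LIM-homeodomain factor of cholinergic neurons, had log2 fold changes of 0.18 (95% interval -0.30 to 0.66) and -0.16 (95% interval -0.64 to 0.32), neither passing. Csrp2, a gene of the cysteine and glycine-rich LIM proteins, was named after its values were seen. It belongs to the other LIM genes and was the listed gene called by DESeq2 in Islet1Cre mutants (log2 fold change -0.58, DESeq2 adjusted p = 0.0369, edgeR adjusted p = 0.200). Lhx6, a LIM-homeodomain factor of interneurons named for the same reason, had a log2 fold change of -0.43 in Dlx5/6::Cre mutants (DESeq2 adjusted p = 0.0235, edgeR adjusted p = 0.0893). The interneuron list, of which Lhx6 is 1 of 6 genes, had lower sums there, as given above, with the lowest, 6599, in replicate 1. Lhx2, a LIM-homeodomain factor of cortical and progenitor cells also named after its values were seen, had normalised counts of 409.7, 270.3 and 148 in controls and 1316, 318 and 285 in Dlx5/6::Cre mutants. Its groups overlapped, and the log2 fold change of 1.21 (95% interval 0.0057 to 2.41, edgeR adjusted p = 0.319) was 0.12 without Dlx5/6::Cre replicate 1, the library with the highest progenitor and cortical sums.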

How the data were processed

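Striatal RNA of 9 embryos at E17.5 was sequenced, 1 library each, and grouped into 3 genotypes by the sample labels. The deposited values are raw counts of reads for each gene identifier, as whole numbers that were not normalised. The authors mapped 75 bp reads with STAR 2.4.0k, removed alignments to more than 1 position and counted with HTSeq 0.5.3 on Ensembl 81, which lowers counts of genes with near-identical copies. None of the 75-base windows of the 6 members (0%) occurred in another gene.

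The counts were fitted with edgeR 4.0.16 in R 4.3.3 in a single fit of the 9 libraries with genotype as the factor, TMM scaling and filterByExpr with a minimum count of 10. Comparisons used the quasi-likelihood test with Benjamini-Hochberg adjustment over 16368 genes, a threshold of 0.05 and 95% intervals. The step was tested on simulated data. Normalised counts are counts divided by DESeq2 1.42.0 size factors. Levels per length are counts per kilobase of merged GENCODE M21 exons (GRCm38) per M (1000000) TMM-scaled counts, and 44133 of 44886 identifiers matched that annotation. Promoters are RefSeq windows on GRCm38.p6.

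The members and the partner, marker and neighbour lists were chosen with earlier results of these data known. The text names all members, Ebf1, Isl1, Lhx8, partners and neighbours past the threshold, and the 5 genes most like Lmo2 and Lmo4 by Pearson's r. Libraries of a genotype differed by more than sampling noise (chi-square per degree of freedom at least 10.8 over 9 pairs). Each library is taken as a separate embryo, and p-values measure the spread between these 3 libraries per genotype. As alternatives, DESeq2 was run, its size factors were used in edgeR, the filter was dropped or raised to a minimum count of 50, and fits used only the 6 samples compared, the replicate number as a block, the embryo code, or 1 embryo fewer. Levels per length were recomputed with raw totals and with the longest transcript.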

Additional observations from a re-analysis of the deposited data

How the results depend on the processing

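Depth was 16.5 to 41.5 M counts, and 3 embryos per genotype limit every test. Genes called in Islet1Cre mutants (159) became 395 with DESeq2, 311 without the filter on low counts, 259 with the 6 samples alone, 61 with the embryo code as a covariate and 62 within it. In Dlx5/6::Cre mutants (392) they became 860, 708, 181, 32 and 38. Between mutants (0) they became 18, 13 and 2 under the first 3 of these. Leaving out each embryo gave 15 to 397, 143 to 613 and 0 to 4.

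Members called in Islet1Cre mutants (1, Lmo4) became 0 with the embryo code as a covariate or within it (log2 fold change 0.85 in both) and 0 to 1 with an embryo left out (log2 fold change 0.70 to 0.89). In Dlx5/6::Cre mutants (1, Lmo4) they became 2 with DESeq2, without the filter and with the replicate block, Lmo1 being added, 0 with the embryo code as a covariate or within it (0.82 in both), and 1 to 2 with an embryo left out. Listed partner and other LIM genes called in Islet1Cre mutants were 1 with DESeq2 and 1 without the filter. In Dlx5/6::Cre mutants they were 2, 4 and, with the replicate block, 1, and in both 0 to 1 with an embryo left out. Neighbours called in Islet1Cre mutants were 2 with DESeq2, 2 without the filter and 1 with the 6 samples alone, in Dlx5/6::Cre mutants 0 with the embryo code as a covariate or within it, and 0 to 1 in both with an embryo left out. Within the code, the Dlx5/6::Cre comparison has 1 control, whose spread is assumed to be that of the other groups. The causes were not tested.

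Signs reversed only for values near 0 that did not pass. Isl1 in Islet1Cre mutants was 0.000175 without the filter, 0.0029 with the 6 samples alone and 0.00062 with the replicate block, and -0.080 to 0.12 with an embryo left out. Over the fits with an embryo left out, Lhx8 ran from -0.031 to 0.38 in Islet1Cre mutants and from -0.37 to 0.039 in Dlx5/6::Cre mutants, Lmo3 in Islet1Cre mutants from -0.076 to 0.24, and Ldb1 from -0.22 to 0.0027 in Dlx5/6::Cre mutants and from -0.11 to 0.10 between mutants.

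Replicate numbers did not pair the libraries (mean correlation of deviations -0.02 over 9 pairs with the same number, 0.01 over 18 pairs with different numbers). With the replicate block 143 and 363 genes were called, Lmo4 had an adjusted p of 0.0489 and 0.0133, and Lmo1 in Dlx5/6::Cre mutants 0.0460 at a log2 fold change of 1.03.

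With the longest annotated transcript, control levels per length were 30.7 for Lmo2, 39.7 for Lmo3, 232 for Lmo4, 106 for Ldb1 and 55.6 for Ldb2, in the same order as with merged exons.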
